A study of Mus musculus with 2 samples.

Results

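The genes described here encode the bone morphogenetic protein (BMP) and transforming growth factor beta (TGF-beta) pathway: 45 named ligands, receptors, Smad proteins, Id targets, antagonists, latent TGF-beta binding proteins and inhibitors, among 23276 gene symbols in the table. Their rows were found by symbol alone and all 45 had one, but the genes were chosen with earlier results of these data known. Heart ventricles of mouse embryos at stage E12.5 were profiled in wild-type (WT) embryos and in embryos lacking both alleles of the long non-coding RNA gene Fendrr (Fendrr KO). Both genotypes had a C57BL/6 x 129SV background and came from embryonic stem cells by tetraploid complementation, with the KO made by homologous recombination. In that method the embryo proper derives from the stem cells, while tetraploid host cells mainly form extraembryonic tissue. How many stem cell clones were used is not given in the sources used here. Total RNA of 4 pooled ventricles per genotype was depleted of ribosomal RNA and gave 1 strand-specific library.

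Ligands of this family bind paired type I and type II receptor kinases, which phosphorylate receptor-regulated Smads. These join the common Smad, Smad4, and act on genes in the nucleus. BMP-type receptors act mainly through Smad1, Smad5 and Smad9, and TGF-beta and activin receptors through Smad2 and Smad3. Smad6 and Smad7 are induced by the pathway and inhibit it, and the Id genes are direct BMP targets that encode inhibitors of basic helix-loop-helix factors. In the embryonic heart, BMP signals act in myocardial growth and in the cushions, and TGF-beta signals in the change of endocardium into cushion mesenchyme.

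Levels are given in FPKM, sequenced fragments divided by transcript length and by library size, so genes can be compared per length. Differences are log2((KO + 1)/(WT + 1)) of the FPKM values, which makes differences of low genes look smaller. With 1 library per genotype no test is possible, so that "higher" and "lower" refer to this pair of libraries alone. Each library was read on its own run, and the labels say that bases of the WT run were called by hand and may have been filtered on read length, so genotype and run cannot be told apart. A gene had to have a mean of at least 1 FPKM to be compared, which 11349 genes did. Their median log2 ratio was -0.11, with 95% of them between -0.64 and 0.49, so members are also described against that median. Fendrr had no row, and its older symbol 1110050K14Rik had 0 FPKM in each library, which leaves the genotype labels without a check. Low values placed the KO library 1.26 times as deep as WT, and absolute depth is unknown.

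Promoter sequences of 4 members that take part in BMP feedback or are BMP targets are shown because these genes are read below as outputs of the pathway, with ratios on both sides of the median. RefSeq windows on build GRCm38.p6 (the values were made on mm9) were available for 33 of the 45 members, and 41 windows in all. Not matched were Acvrl1, Bambi, Bmp2, Bmp7, Fst, Id1, Nog, Smad2, Smad4, Smad7, Tgfb3 and Tgfbr3. Each line gives 250 bases, from 240 before to 10 after the start, with capitals marking GTCTAGAC, the palindromic Smad-binding element, or GGCGCC, a GC-rich palindrome bound by BMP Smads.
Smad6 chr9:64022050-64022299 (- strand): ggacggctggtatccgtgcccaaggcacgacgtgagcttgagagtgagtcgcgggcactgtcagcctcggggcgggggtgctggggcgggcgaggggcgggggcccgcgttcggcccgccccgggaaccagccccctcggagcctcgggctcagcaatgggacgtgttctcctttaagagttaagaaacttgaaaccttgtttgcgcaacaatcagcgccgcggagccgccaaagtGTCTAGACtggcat
Id2 chr12:25096083-25096332 (- strand): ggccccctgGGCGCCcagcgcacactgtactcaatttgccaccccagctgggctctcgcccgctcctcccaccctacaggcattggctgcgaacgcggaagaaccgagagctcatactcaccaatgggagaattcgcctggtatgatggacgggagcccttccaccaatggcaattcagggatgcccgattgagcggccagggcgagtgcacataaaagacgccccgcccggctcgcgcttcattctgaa
Id3 chr4:136143582-136143831 (+ strand): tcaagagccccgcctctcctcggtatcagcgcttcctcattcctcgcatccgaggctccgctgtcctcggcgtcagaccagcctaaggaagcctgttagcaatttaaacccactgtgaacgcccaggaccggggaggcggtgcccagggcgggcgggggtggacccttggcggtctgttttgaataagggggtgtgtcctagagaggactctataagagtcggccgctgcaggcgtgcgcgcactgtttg
Id4 chr13:48260876-48261125 (+ strand): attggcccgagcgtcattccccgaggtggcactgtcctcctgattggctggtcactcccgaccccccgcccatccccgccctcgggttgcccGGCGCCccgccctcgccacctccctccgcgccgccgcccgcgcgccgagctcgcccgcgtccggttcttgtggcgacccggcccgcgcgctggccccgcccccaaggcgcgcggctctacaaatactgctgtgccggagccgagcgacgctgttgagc

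Both motifs read the same on both strands, do not overlap each other, and were searched from 250 bases before to 50 after each start. GTCTAGAC occurred in 1 member, Smad6, where it begins 4 bases before the start, and in 0.213% of all 32851 windows. GGCGCC occurred in 12 of the 33 members and in 34.1% of their windows, against 11.9% of all windows. Windows of members are often rich in G and C (60.0% in Id3, 73.3% in Id4), and base composition was not matched in this count. Id2 held GGCGCC 231 bases before its start and Id4 148 bases before, while the window of Id3 held neither motif. A match is a run of letters only, and binding was not measured.

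The pathway as a whole was at similar levels in both libraries. Of the 45 genes, 39 had a mean of at least 1 FPKM, and none of these was 2-fold apart in either direction, where 0.467% of all compared genes passed that limit upward and 0.388% downward. At 1.5-fold, 1 member (Id1) was higher, against a background of 1.54%, and none was lower, against 3.6%. Counts this close to the background say nothing particular about the members. Log2 ratios ran from -0.55 (Smad4) to 0.65 (Id1), with a median of -0.014 against -0.11 for all genes. Above the median of all genes lay 29 of the 39 members (74.4%), where by construction all genes divide evenly. Among the 29 is Smad9, which passed the filter only through its KO value. Within 1.2-fold of that median lay 76.9% of the members and 70.2% of all genes. The other 6 genes (Tgfb1, Bmpr1b, Nog, Grem1, Chrd and Ltbp2) were under 1 FPKM on average.

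**Figure D1:**
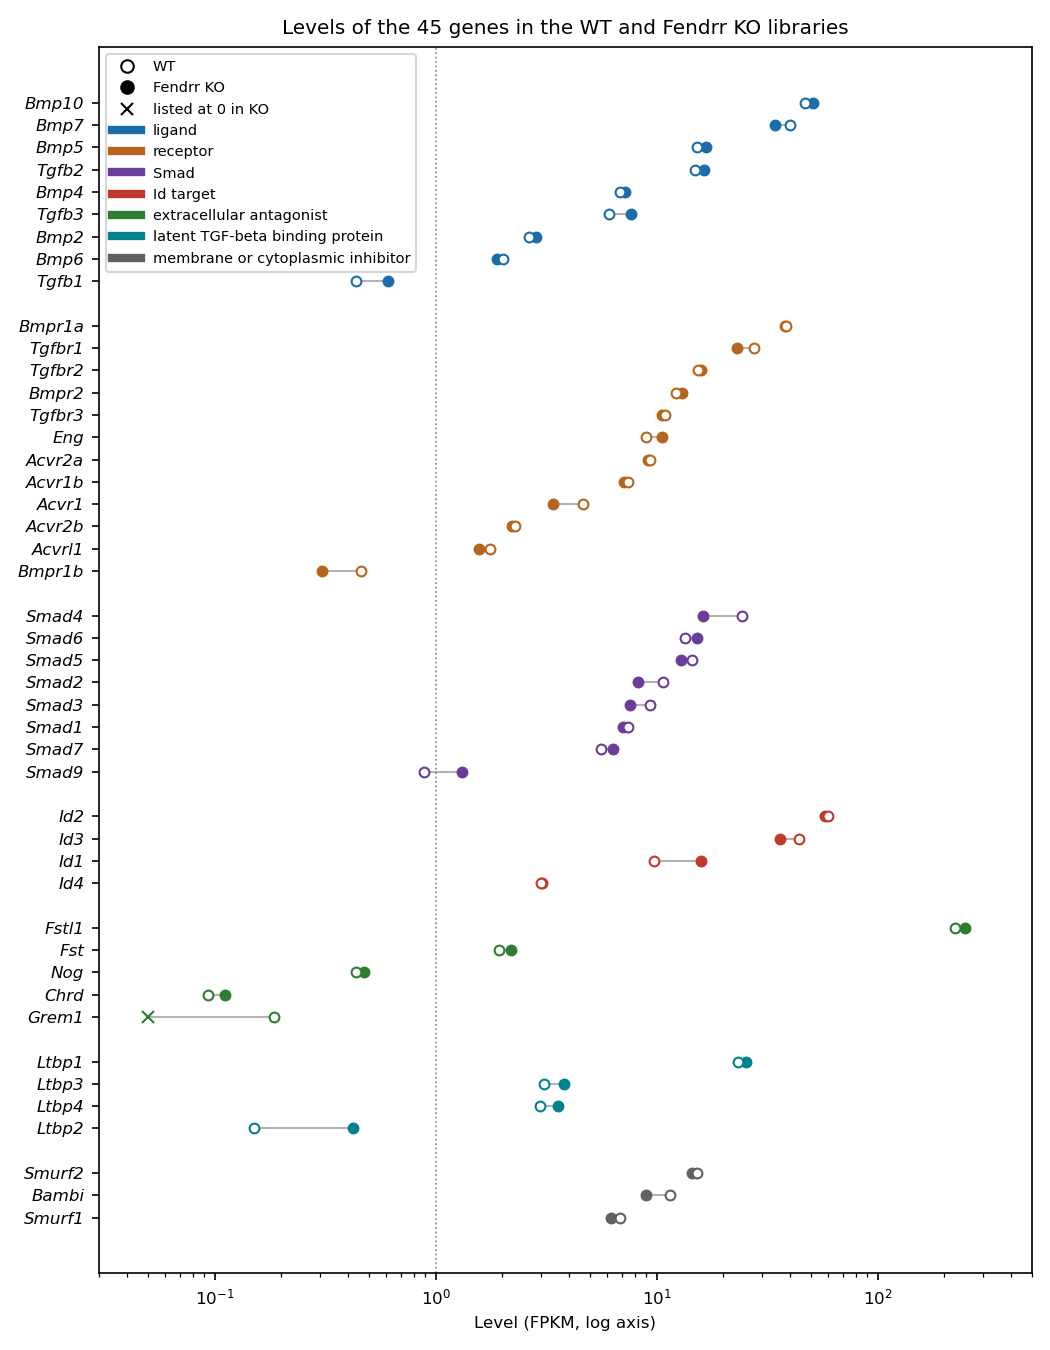
Level of each of the 45 genes in FPKM on a log axis, with open points for WT and filled points for Fendrr KO (1 library each), ordered by mean level within each class; the dotted line marks 1 FPKM. Most pairs of points nearly coincide, Fstl1 is the most abundant gene with 225 FPKM for WT against 249 FPKM for KO, and Grem1, listed at 0 in KO, is drawn as a cross at the left edge.

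The BMP ligand genes were dominated by Bmp10 and Bmp7, and the summed level of all 6 was 114 FPKM in each library. Bmp10, a ligand of trabecular myocardium needed for ventricular growth, measured 47.2 FPKM in WT beside 51.1 FPKM in KO (log2 ratio 0.11). Bmp7 had 40.1 FPKM in the WT library and 34.2 FPKM in the KO library (log2 ratio -0.22), and was the single BMP ligand gene below the median of all genes. Bmp10 was thus the more abundant of the pair, at 1.18 times the level of Bmp7 in WT and 1.49 times in KO. Bmp5, a close relative of Bmp7, was at 15.3 and 16.7 FPKM in WT and KO. Bmp4, a ligand of the outflow tract, was at 6.86 and 7.17 FPKM. Bmp2, known for patterning the atrioventricular canal, stood at 2.64 FPKM in WT against 2.85 FPKM in KO. Bmp6 was the lowest of the ligands above 1 FPKM, with 2.03 FPKM for WT against 1.89 FPKM for KO. These 4 lay close together between the libraries, with log2 ratios from -0.067 to 0.11.

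Among TGF-beta ligands Tgfb2 was the most abundant. Tgfb2, the isoform most closely tied to cushion formation, measured 15.0 FPKM in WT beside 16.4 FPKM in KO (log2 ratio 0.12). Tgfb3 had 6.07 FPKM in the WT library and 7.67 FPKM in the KO library, a log2 ratio of 0.29 that was the furthest of all ligands, and 0.40 above the median of all genes. Its ratio stood at percentile 92.9 of all compared genes, inside the central 95%. Tgfb1 stood at 0.438 FPKM in WT against 0.610 FPKM in KO. The Tgfb1 values stood in the ratio of 7 KO reads to 4 WT reads, or a common multiple, once the depths were taken into account. No difference can be read from values this low. In all, 7 of the 8 ligand genes above 1 FPKM lay above the median of all genes, with a class median of 0.096.

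Markers of the cushion mesenchyme and fibroblasts, which express TGF-beta ligands, were also mostly higher than the all-gene median in KO. Of 20 such markers, 18 lay above it, and they summed to 730 FPKM for WT against 901 FPKM for KO. At 1.5-fold, 2 were higher in KO, Eln (12.9 and 31.0 FPKM in WT and KO) and Dpt (4.95 and 10.4 FPKM), against 1.54% of all genes. Prrx2 was lower (9.07 and 4.90 FPKM, log2 ratio -0.77), against 3.6% of all genes. None of the 20 was listed at 0. Endothelial and endocardial markers (19, of which 18 were compared and 13 lay above that median) summed to 357 FPKM for WT against 359 FPKM for KO. As deposited, 9 of the 18 were higher in KO and 9 lower, from Flt4 (log2 ratio -0.35) to Flt1 (0.53). Sox18 (0.897 FPKM in WT and 1.13 FPKM in KO), among the 13, passed the filter only through its KO value. Cardiomyocyte markers (15, of which 6 lay above the all-gene median) summed to 26148 FPKM for WT against 25611 FPKM for KO, and so the defining genes of the labelled tissue were abundant in both. Single markers differed more than the sum, from Tnni3 (log2 ratio -0.77) to Tnnt2 (0.51). At 1.5-fold, 2 of the 15 were lower in KO, against 3.6% of all genes, and 0 were higher. These were Tnni3 (753 and 443 FPKM in WT and KO) and Myl3 (2671 and 1651 FPKM). Trabecular markers, which include Bmp10 itself, had 4 of 7 above the all-gene median, atrial markers 2 of 7, epicardial markers 4 of 12 and erythroid markers 4 of 10. Of the 5 lung markers none reached a mean of 1 FPKM. The part of cell composition in the values of the pathway genes was not tested. In such bulk tissue, fewer cells of a type and less RNA per cell cannot be told apart.

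**Figure D2:**
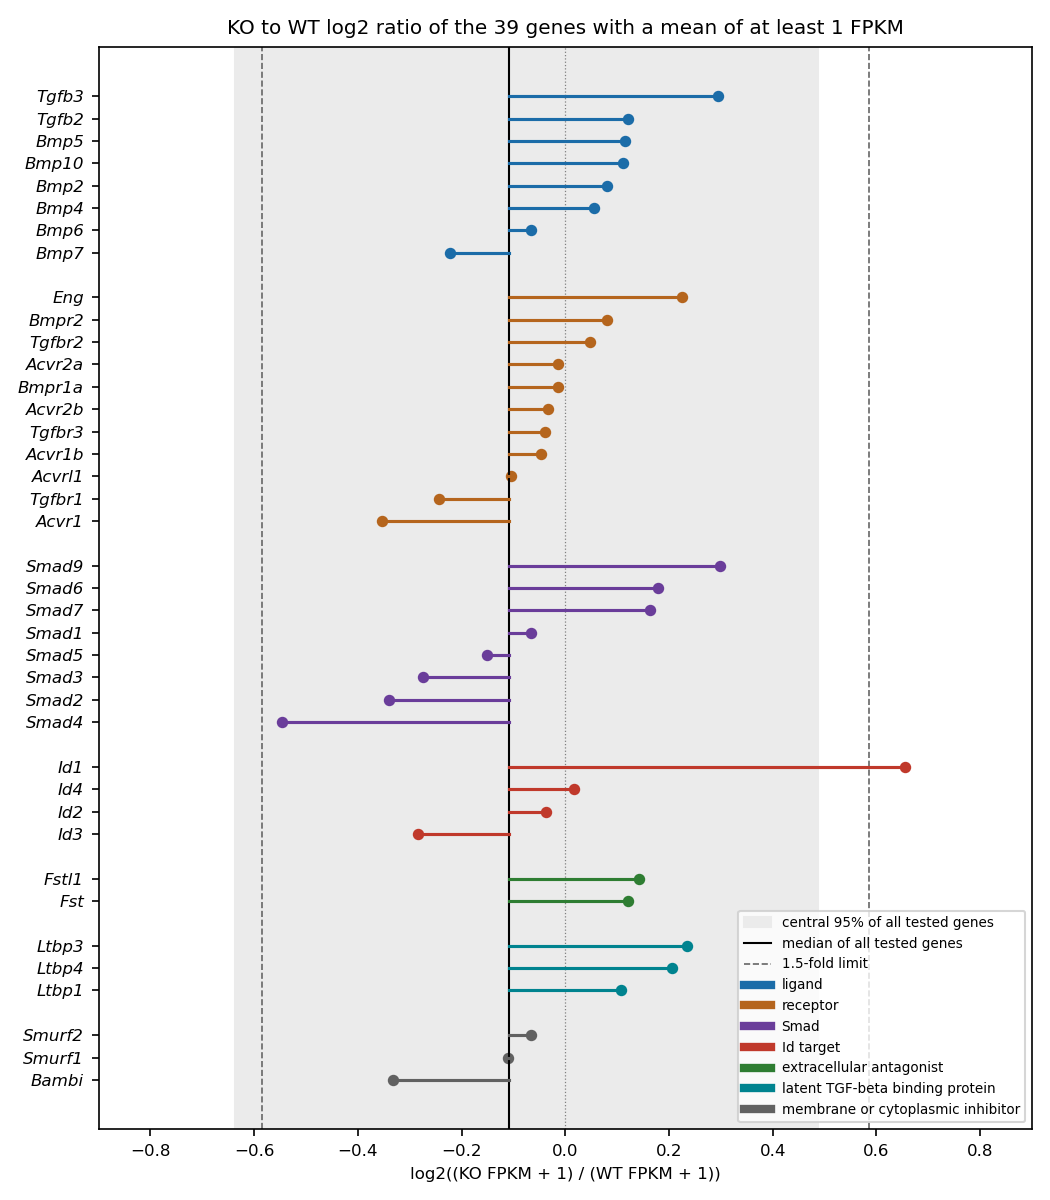
Log2((KO FPKM + 1)/(WT FPKM + 1)) of the 39 genes compared, by class, drawn from the median of all genes (black line at -0.11); the grey band holds the central 95% of all compared genes and dashed lines mark 1.5-fold. Id1, at 0.65, is the single member outside the band, and Smad4, at -0.55, is the lowest.

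As deposited, the 5 type I receptor genes compared were all lower in KO, 3 of them by little. Against the median of all genes, 3 of the 5 lay above it, as did all 4 type II genes and both co-receptors. Bmpr1a, the main BMP type I receptor of the developing heart, was the most abundant receptor gene, with 38.4 FPKM for WT against 38.0 FPKM for KO. Tgfbr1, the type I receptor for TGF-beta, measured 27.6 FPKM in WT beside 23.2 FPKM in KO (log2 ratio -0.24). Acvr1, a BMP type I receptor active in the cushions, had 4.64 FPKM in the WT library and 3.42 FPKM in the KO library. Its log2 ratio of -0.35 was the lowest of the receptors. Acvr1b, a type I receptor for activins, was at 7.39 and 7.13 FPKM in WT and KO. Acvrl1, an endothelial receptor for Bmp10, stood at 1.77 FPKM in WT against 1.58 FPKM in KO, within 0.0048 of the median log2 ratio of all genes. Bmpr1b was low in the ventricle, with 0.458 FPKM for WT against 0.308 FPKM for KO.

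The 4 type II receptor genes lay within a narrow band of log2 ratios, from -0.033 to 0.080. Tgfbr2, the TGF-beta type II receptor, measured 15.4 FPKM in WT beside 16.0 FPKM in KO. Bmpr2, which pairs with BMP type I receptors, was at 12.3 and 13.0 FPKM. Acvr2a and Acvr2b, which serve activins and BMPs, are related genes at unlike levels. Acvr2a had 9.29 FPKM in the WT library and 9.19 FPKM in the KO library, and Acvr2b was at 2.29 and 2.22 FPKM. The level of Tgfbr1 was 1.79 times that of Tgfbr2 in WT and 1.45 times in KO. The co-receptor Eng (endoglin), an endothelial protein that aids ligand binding, stood at 8.92 FPKM in WT against 10.6 FPKM in KO (log2 ratio 0.22), and of the receptor genes compared lay furthest from the median of all genes, 0.33 above it. Tgfbr3 (betaglycan), which presents TGF-beta 2 to its receptors, was at 10.9 and 10.6 FPKM. Of the 11 receptor genes compared, 9 had ratios above the all-gene median, and the class median was -0.033.

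Of the 8 Smad genes, 4 lay above the all-gene median (Smad1, Smad6, Smad7 and Smad9) and 4 below it (Smad2, Smad3, Smad4 and Smad5). Smad4, the shared partner of all receptor-regulated Smads, was the most abundant Smad gene of each library, with 24.3 FPKM for WT against 16.3 FPKM for KO. The KO level was 0.672 of the WT level and the log2 ratio of -0.55 was the lowest of all members, at percentile 4.56 of all genes. It did not reach 1.5-fold. Smad2 and Smad3, the effectors of TGF-beta and activin receptors, lay lower in KO as well. Smad2 measured 10.8 FPKM in WT beside 8.29 FPKM in KO (log2 ratio -0.34), and Smad3 was at 9.35 and 7.56 FPKM (log2 ratio -0.27).

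The BMP effectors Smad1 and Smad5 differed less. Smad5, the more abundant, had 14.4 FPKM in the WT library and 12.9 FPKM in the KO library, and Smad1 was at 7.45 and 7.07 FPKM. Smad9, another effector of BMP receptors, was near the limit of comparison, with 0.883 FPKM for WT against 1.31 FPKM for KO. It passed the filter only through its KO value, and the counts of members above the all-gene median include it. Both inhibitory Smads had almost the same KO to WT ratio of FPKM, 1.14. Smad6, which inhibits BMP signals in particular and whose window above holds the Smad-binding element, stood at 13.4 FPKM in WT against 15.3 FPKM in KO. Smad7, which inhibits both branches, was at 5.59 and 6.38 FPKM. The level of Smad6 was 0.552 of that of Smad4 in WT and 0.938 in KO. These genes lay on opposite sides of the all-gene median, so the comparison adds nothing to their own ratios. Smad6 made up 15.6% of the summed Smad level in WT and 20.4% in KO, and Smad4 made up 28.2% and 21.7%.

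The Id targets differed among themselves. Id1 measured 9.73 FPKM in WT beside 15.9 FPKM in KO, 1.63 times the WT level. Its log2 ratio of 0.65 stood at percentile 98.8 of all compared genes and was 0.76 above their median. Id3, which often overlaps with Id1 in endothelium and endocardium, had 44.2 FPKM in the WT library and 36.1 FPKM in the KO library (log2 ratio -0.28). Id2, the most abundant Id gene, was nearly level at 59.6 and 58.0 FPKM, and Id4, the least abundant, at 2.99 and 3.04 FPKM. The level of Id1 relative to Id3 was thus 0.220 in WT and 0.440 in KO. This pair joins the highest member to the single Id gene below the all-gene median, so it adds nothing to their own ratios. Id1 made up 8.35% of the summed Id level in WT and 14.05% in KO, while that sum was 116 FPKM for WT against 113 FPKM for KO. Endothelial and endocardial markers, whose cells express Id1 and Id3, had the near-equal sums given above, with single markers higher and lower. Their part in these values was not tested. With a pseudocount of 5 FPKM in place of 1, the log2 ratio of Id1 was 0.50, under the 1.5-fold limit of 0.58.

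Among the 5 secreted antagonist genes of the members, all but Fstl1 were scarce. Fstl1, a secreted glycoprotein known to bind BMP4 and dampen its signal, stood at 225 FPKM in WT against 249 FPKM in KO (log2 ratio 0.14). It held 98.8% of the summed level of the 5 antagonist genes in WT and 98.9% in KO. Fst (follistatin), which traps activins and some BMPs, measured 1.93 FPKM in WT beside 2.19 FPKM in KO. Nog (noggin), an antagonist of BMP2 and BMP4, was at 0.437 and 0.475 FPKM. Chrd (chordin), which binds the same ligands, had 0.0933 FPKM in the WT library and 0.111 FPKM in the KO library. The Chrd values stood as 3 KO reads to 2 WT reads, or a common multiple. Grem1 (gremlin) had 0.187 FPKM in the WT library and is listed at 0 in that of KO, and no fold is given for it. As for Tgfb1, these 3 low pairs of values carry no readable difference.

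Genes of latent TGF-beta binding proteins, which tether inactive TGF-beta to the matrix, lay above the median of all genes in the 3 cases that could be compared. Ltbp1, the most abundant, stood at 23.4 FPKM in WT against 25.3 FPKM in KO (log2 ratio 0.11). Ltbp3 was at 3.11 and 3.83 FPKM (log2 ratio 0.23), and Ltbp4 at 2.96 and 3.57 FPKM (log2 ratio 0.21). The order of the 3 was the same in both libraries. Ltbp2, a relative that does not bind TGF-beta, measured 0.150 FPKM in WT beside 0.424 FPKM in KO, a ratio of 2.82 between values under the 1 FPKM limit. The class summed to 29.6 FPKM for WT against 33.1 FPKM for KO. The cushion and fibroblast markers given above, many of them matrix genes, lay above it in 18 of 20 cases, and their part in these values was not tested.

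As deposited, all 3 inhibitors at the membrane and in the cytoplasm were lower in KO. Against the median of all genes, Bambi lay below it. Smurf1 lay just below it and Smurf2 just above, and both changed side with the processing. Bambi, a receptor-like protein without a kinase domain that blocks signalling, had 11.5 FPKM in the WT library and 8.94 FPKM in the KO library (log2 ratio -0.33). Smurf1 and Smurf2, ubiquitin ligases that mark Smads and receptors for degradation, differed little. Smurf1 stood at 6.82 FPKM in WT against 6.24 FPKM in KO, and Smurf2 at 15.2 and 14.5 FPKM. Bambi is itself induced by BMP and TGF-beta signals. The members described here as induced by the pathway thus lay on both sides as deposited, with Bambi, Id2 and Id3 lower in KO and Smad6, Smad7, Id1 and Id4 higher. Against the median of all genes, Bambi and Id3 lay below it, and Id2 lay above it with Smad6, Smad7, Id1 and Id4.

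**Figure D3:**
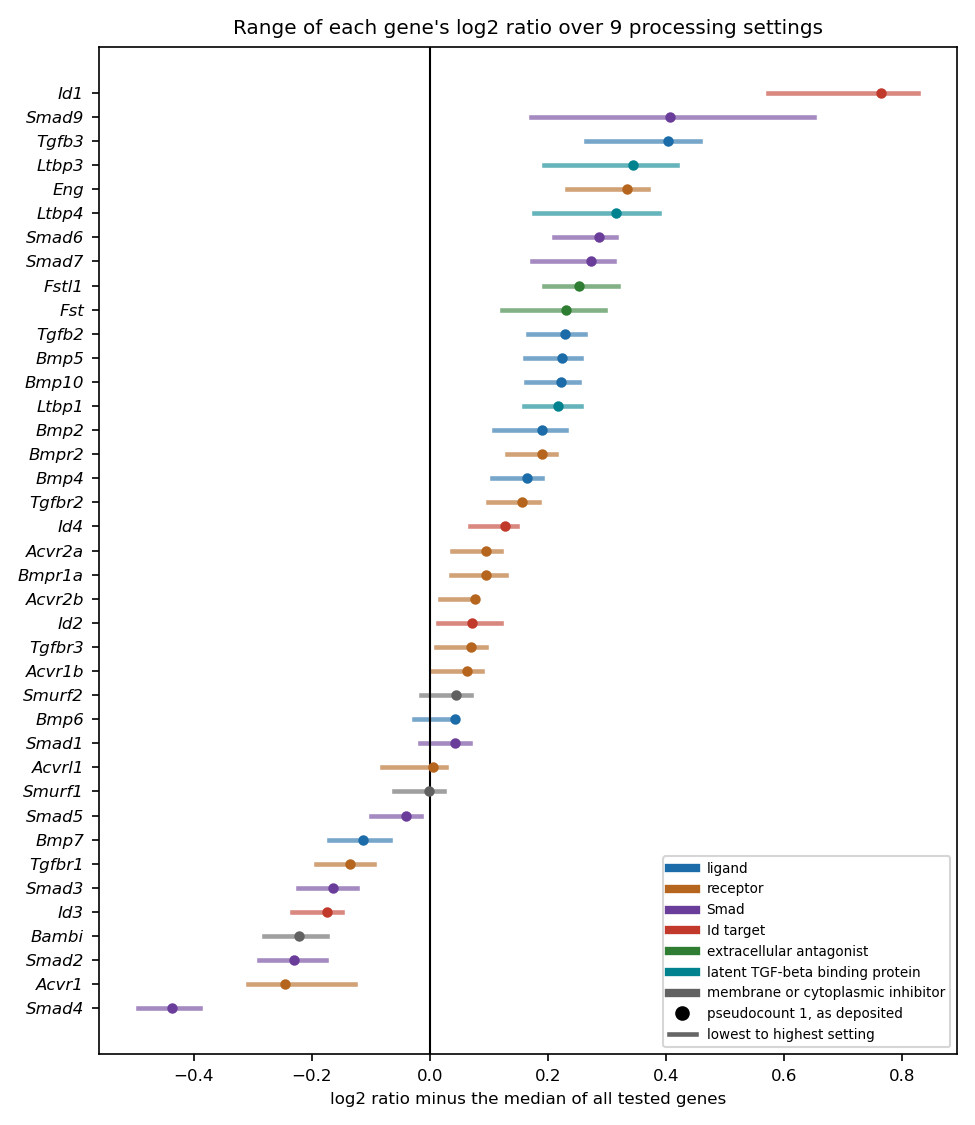
Log2 ratio minus the median of all genes for each of the 39 genes, as a point for the values as deposited with a pseudocount of 1 FPKM and a bar from the lowest to the highest of up to 9 processing settings. Bars of 25 genes lie wholly above 0 and those of 9 wholly below it, with Id1 furthest above (0.57 to 0.83) and Smad4 furthest below (-0.49 to -0.39).

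Across pseudocounts, filters and scalings, 25 of the 39 members lay above it in every setting in which they were compared and 9 below it. The other 5 (Bmp6, Acvrl1, Smad1, Smurf1 and Smurf2) changed side at least once. Median centring cannot move a gene across the median. Scaling a library by 1 factor (upper quartile, trimmed mean) can do so only through the pseudocount, because the filter used the deposited values. These settings thus say little about stability. Members between that median and 0, such as Bmpr1a, Acvr2a and Id2, were lower in KO as deposited and higher once the median was brought to 0.

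Other genes of the pathway, from a list of 133 that excluded the members, were also close between the libraries. Of 132 with a row, 87 were compared, of which 57 had ratios above the all-gene median, and their own median log2 ratio was 0.020. With the pseudocount of 1 FPKM none passed the 2-fold limit. At 1.5-fold, 2 were higher in KO, against the background of 1.54%, and none was lower. Hfe2 (hemojuvelin), a BMP co-receptor known from iron control and striated muscle, measured 1.59 FPKM in WT beside 3.64 FPKM in KO (log2 ratio 0.84 with the pseudocount). Tgfbi, a matrix protein gene induced by TGF-beta, had 28.8 FPKM in the WT library and 50.2 FPKM in the KO library (log2 ratio 0.78). The FPKM values of Hfe2 themselves were 2.29-fold apart, and at this low level the pseudocount brings the pair under 2-fold. Beside these, some genes in the marker lists of other cell types were higher in KO. Being on such a list does not show that a gene is confined to that cell type in this tissue. The 12 liver and yolk sac markers summed to 9.50 FPKM for WT against 34.7 FPKM for KO. Only 3 were compared, and the other 9 were under 1 FPKM on average, with Alb at 0 in each library. Afp, the fetal serum protein gene, was at 0.110 and 16.6 FPKM, and Ttr at 0.438 and 1.79 FPKM. Both passed the filter only through their KO values. Trf, at 8.19 and 11.4 FPKM, made up most of the WT sum. Of 7 skeletal muscle markers 3 were compared. Ckm was at 45.8 and 84.6 FPKM in WT and KO, but Acta1 (114 and 122 FPKM) and Tnni2 (45.7 and 46.3 FPKM) were nearly level. The other 4 were low or absent: Myod1 (0 and 0.033 FPKM), Myog (0.103 and 0.123 FPKM), Myh3 (0 and 0.203 FPKM) and Myf5 (0 in each). Macrophage markers summed to 65.2 FPKM for WT against 97.1 FPKM for KO, with Lyz2 alone at 41.9 and 58.9 FPKM. Of the 11 compared, 8 were higher in KO as deposited and 3 lower (C1qc, Cd68 and Emr1). Against the median of all genes, 10 of the 11 lay above it, with a list median of 0.34. At 1.5-fold, 3 were higher (C1qa, C1qb and Ctss), against 1.54% of all genes, and 0 were lower. The part of these cell types in the values of Hfe2 and Tgfbi was not tested.

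The other ligands were few above 1 FPKM, with 5 of 25 compared and 4 of these above the median of all genes. Bmp1, which despite its name is a protease that cleaves procollagen and chordin, stood at 8.88 FPKM in WT against 8.13 FPKM in KO. Mstn (myostatin), a muscle growth inhibitor, was at 5.41 and 7.05 FPKM. Of the other receptors and co-receptors, 5 of 7 compared lay above that median. Tmeff1, which inhibits Nodal signalling, measured 44.3 FPKM in WT beside 44.4 FPKM in KO, and Nrp1, a co-receptor for several ligands, was at 33.8 and 33.6 FPKM.

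Other extracellular modulators had 13 of 17 above the all-gene median, with a median of 0.14. Dcn (decorin), a proteoglycan that binds TGF-beta and is also one of the cushion markers, had 46.2 FPKM in the WT library and 42.3 FPKM in the KO library. Thbs1, an activator of latent TGF-beta, was at 24.1 and 26.7 FPKM. Intracellular regulators were evenly placed, with 17 of 34 above the median and a list median of -0.11. Pmepa1 (0.911 FPKM in WT and 1.32 FPKM in KO), among the 17, passed the filter only through its KO value. Stub1, a ubiquitin ligase, stood at 76.5 FPKM in WT against 69.0 FPKM in KO, and Strap, a partner of the TGF-beta receptors, at 59.0 and 56.2 FPKM.

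Among other target genes, 18 of 24 had ratios above the all-gene median, and the median of the list was 0.065. Acta2, smooth muscle actin, measured 467 FPKM in WT beside 409 FPKM in KO, and Cdkn1c, a cell cycle inhibitor, was at 267 and 261 FPKM. The list shares 5 genes with the cushion markers (Col1a1, Col1a2, Col3a1, Sox9 and Twist1), all of them above the median of all genes. Without these, 13 of 19 targets lay above it and their median was 0.020.

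**Figure D4:**
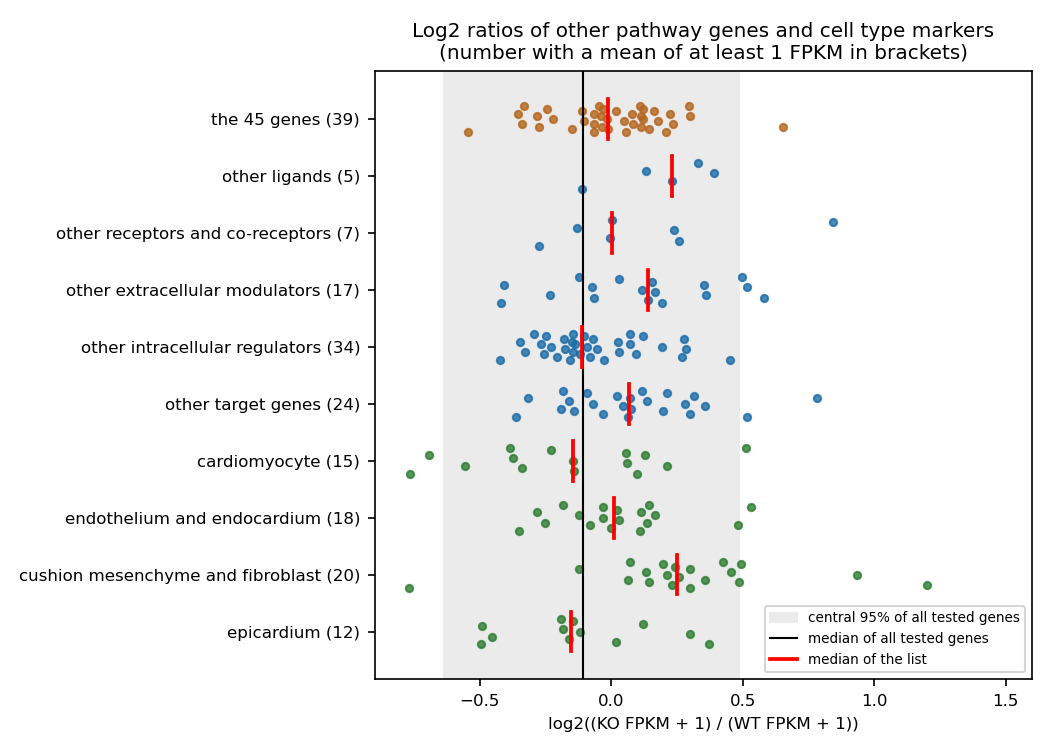
Log2((KO FPKM + 1)/(WT FPKM + 1)) of single genes (points) in the pathway gene set, the other pathway lists and 4 cell type marker lists, with the list median in red, the median of all genes as a black line and their central 95% in grey. The intracellular regulators centre on the black line, and the cushion mesenchyme and fibroblast markers have the highest list median shown, 0.25.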

How the data were processed

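One library of ribosomal RNA-depleted total RNA (500 ng, 15 PCR cycles, reads of 100 bases) was made per genotype, per the labels' protocols. The authors deposited 1 FPKM value per gene symbol and library. TopHat2 2.0.6, Bowtie2 2.0.2 and Cufflinks 2.0.2 with build mm9 are named in the submitters' processing notes, while no source used here gives the annotation or options. FPKM values hold no depth, so no counting interval is given. Relative depth came from 2213 genes with low values (mean under 0.3 FPKM, above 0 in both libraries): dividing KO by WT and by 0.796 gave a quotient of whole numbers no larger than 10, to within 0.1%, for 69.3% of them, against at most 10.9% at shifted steps. Reads in whole-number ratios were sought only for members under 1 FPKM.

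Log2 ratios used a pseudocount of 1 FPKM and a minimum mean of 1 FPKM. With 1 library per genotype no test was run. Members, classes and lists were chosen with earlier results of these data known. All members are named, with the 2 most abundant genes of each other pathway list and each of their genes past 1.5-fold. Ratio and scaling steps were tested on simulated data. Promoter windows were RefSeq's. Alternatives were pseudocounts of 0.1 and 5, no filter, a minimum mean of 5 FPKM, median centring, upper-quartile, trimmed-mean and quantile scaling, and a 1.5-fold limit. Python 3.11.15, numpy 2.4.6, pandas 2.3.3 and matplotlib 3.10.9 were used.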

Additional observations from a re-analysis of the deposited data

How the results depend on the processing

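No paired analysis was possible because WT and KO have 1 library each, and none could be left out. The median log2 ratio of the members, -0.014 as deposited, was 0.017 without a filter, 0.095 with median centring, 0.12 with upper-quartile scaling, and 0.11 with trimmed-mean and with quantile scaling (0.11). Relative to all genes it stayed above 0, between 0.059 and 0.12. Members above the median of all genes numbered 27 to 29 of 39, except without a filter (29 of 45) and at a minimum mean of 5 FPKM (21 of 29). Median centring leaves this count as it was by construction. At 1.5-fold in place of 2-fold, 1 member and 2 other pathway genes were called higher, and 1 other pathway gene was with a pseudocount of 0.1. Higher and lower calls over all genes, 53 and 44, became 98 and 98 at a pseudocount of 0.1, 16 and 17 at 5, 26 and 33 at a minimum mean of 5, 62 and 25 with median centring, and 175 and 408 at 1.5-fold. Lower calls were 26 or 27 with the other scalings.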
